A study of Mactra quadrangularis with 2 samples.

Results

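Transcripts of mobile genetic elements were followed in digestive glands of the clam Mactra veneriformis (Mactra quadrangularis in the organism label), with 1 poly(A) RNA library from clams given the solvent DMSO and 1 from clams given BDE-47. The members are unigenes, transcript contigs assembled without a genome, whose first listed protein match in the Nr database or whose Swiss-Prot match named a reverse transcriptase, a retrotransposon, a Pol polyprotein, a transposon or a transposase. Of the 4337 described unigenes in the authors' table of called unigenes, 234 met these words, 5.40% of them, and the whole count table held 124752 unigenes. The retrotransposon type had 186 members and the DNA-transposon type 47. The last, CL864.Contig2, is named for tetratricopeptide repeat protein 19 and matched only through letters inside its symbol, so it was placed in neither type. No row was dropped for a virus in its name (0 rows).

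The control clams were held for 3 days in aerated sea water with DMSO at 0.05% by volume. The exposed clams had the same solvent, with BDE-47, a brominated diphenyl ether once used as a flame retardant, at a nominal 5 µg/L over the same 3 days. Neither group was free of solvent, so the comparison is of BDE-47 in DMSO with DMSO. Per the series text there were 3 replicates of 30 clams in each group and the glands of 30 clams were pooled for extraction, but each group has a single library in the tables. The sources used here do not say whether that library pools the replicates or is 1 of them.

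Retrotransposons move by being transcribed into RNA, which reverse transcriptase copies back into DNA at another place in the genome. Non-LTR elements (jockey, LINE-1, R1 and R2 among them) encode an endonuclease and a reverse transcriptase, whereas LTR elements (Ty3/gypsy and BEL/Pao) resemble retroviruses and encode Gag and Pol polyproteins between long terminal repeats. DNA transposons such as Tc1/mariner encode a transposase that cuts the element out and pastes it elsewhere. In animals Piwi proteins, guided by small RNAs, hold many of these elements down, best known from the germ line of flies and mice. A transposon-like transcript need not come from an active element, since broken copies inside other genes are transcribed too.

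The control library held 15.6 M counted fragments and the BDE-47 library 15.9 M. With 1 library per group nothing was tested, no difference has a replicate check, and every comparison is of these libraries. A unigene was called higher or lower when its log2 ratio of FPKM (fragments per kilobase, scaled by the library's counted total) plus 0.1 reached 1 in size, when it had at least 20 fragments in all, and when the 95% interval of the ratio of fragments excluded 1. These intervals and the floor of 3 fragments used where a library had 0 cover counting error only, and not differences between clams or libraries. PCR copies carried no molecular identifiers, so 1 molecule may be counted more than once and the intervals may be too narrow. Being called at all was set by the table the members were drawn from, so their direction, and not their being called, is described. Less RNA per cell and fewer cells of a type cannot be told apart in whole glands.

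More retrotransposon-type unigenes were lower than higher in the BDE-47 library, in nearly the proportions of all described called unigenes. Of the 186, 60 (32.3%) were higher, 117 (62.9%) lower and 9 not past the rule, against 33.9% higher and 60.1% lower among the 4337 described called unigenes. The authors' own calls, which include every member by selection, had 64 up and 122 down. Over all 124752 unigenes these calls had 7597 up (6.09%) and 10028 down (8.04%). With at least 100 fragments, 36 of 108 were higher and 69 lower, beside 34.2% and 62.2% of described called unigenes at that depth. Over the 89164 unigenes with 20 or more fragments, 12.4% were higher and 16.2% lower. The median log2 ratio of the 186 was -1.60, beside -1.19 for the described called unigenes and -0.11 for all unigenes with 20 fragments. The median member called higher was 4.18-fold higher and the median member called lower 4.72-fold lower, beside 4.03-fold and 3.14-fold among described called unigenes. Most members were scarce: the median FPKM was 4.22 in control and 2.10 in exposed clams, and 2 members were at 0 in the control and 8 at 0 in BDE-47.

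Retrotransposon-type fragments summed to 40354 in the control (95% Poisson interval 39961 to 40750) and 31308 in BDE-47 (30962 to 31657), a ratio 1.32-fold lower (1.30 to 1.34). The 2 members with the most fragments differed in opposite directions, and without both the sum was 1.31-fold lower (1.29 to 1.34). CL6927.Contig5, matched to jockey, held 18.2% of the control sum, and without it the sum was 1.10-fold lower (1.09 to 1.12). Unigene15209, matched to the Ty3/gypsy element 412, held 19.5% of the BDE-47 sum, and without it the sum was 1.57-fold lower (1.55 to 1.60).

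**Figure D1:**
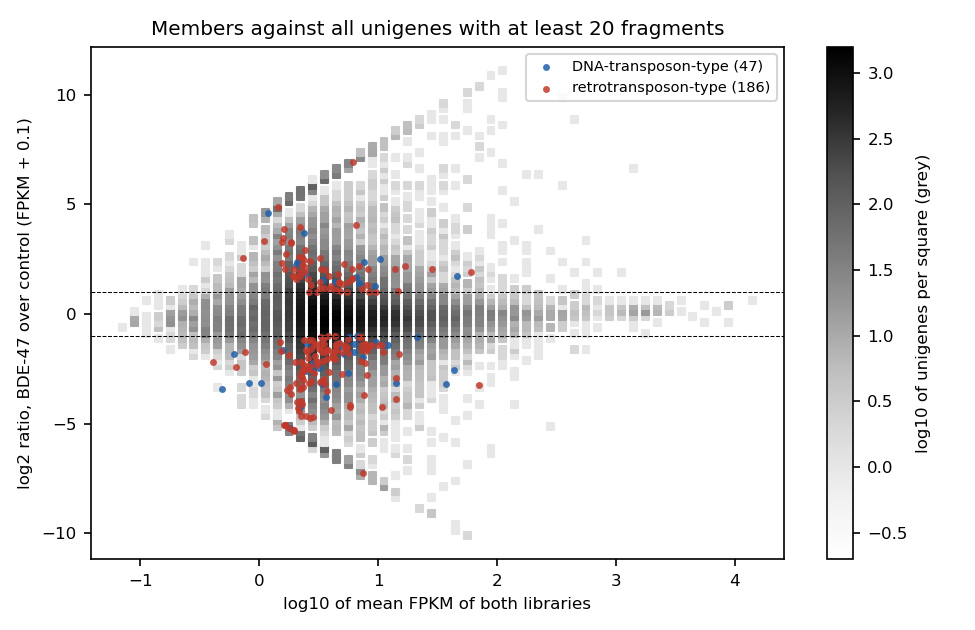
Log2 ratio of BDE-47 over control FPKM plus 0.1 against the log10 mean FPKM of both libraries. Grey squares are all 89164 unigenes with at least 20 fragments, shaded by their number, points are the 186 retrotransposon-type and 47 DNA-transposon-type members, and the dashed lines mark log2 ratios of 1 and -1. Members lie above and below the lines because all were drawn from the authors' called unigenes, with more below than above.

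Direction followed the number in a unigene's name. Among all unigenes outside clusters, the median log2 ratio was -0.18 for the 39995 numbered below 40000, 1.16 for the 25968 numbered 40000 to 65999 and -1.81 for the 11532 numbered 66000 and above. Described called unigenes, from which the members were drawn, had 470 of 552 higher and 14 lower in the middle block, and 430 of 501 lower and 3 higher in the last. Members of both types had 24 of 25 higher and 0 lower in the middle block, and 36 of 39 lower and 0 higher in the last. These bounds were chosen after the values were seen. What the numbers record in the assembly is not stated in the sources used, and their part in the results was not tested. Without the unigenes numbered 40000 and above, 40 (30.5%) of 131 retrotransposon-type members were higher and 86 (65.6%) lower. Described called unigenes without those numbers had nearly the same shares, 30.4% and 65.8%. The retrotransposon-type sum was then 1.32-fold lower (1.30 to 1.34). Their median log2 ratio was then -1.45, beside -1.20 for described called unigenes. The median member called lower was 3.58-fold lower, beside 2.90-fold, and the median called higher 3.39-fold higher, beside 3.18-fold.

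**Figure D2:**
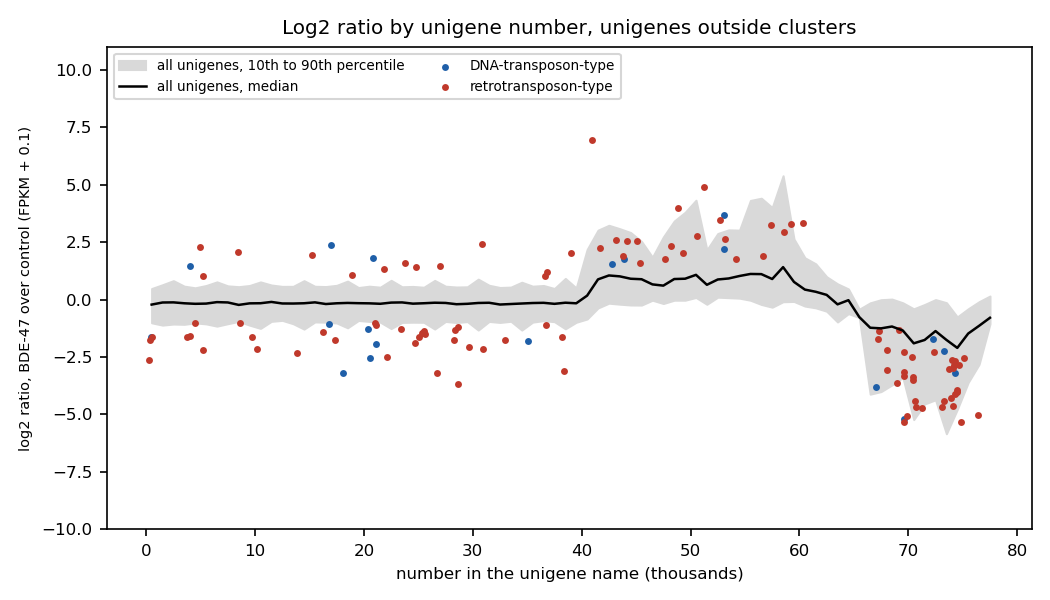
Log2 ratio of BDE-47 over control FPKM plus 0.1 against the number in the unigene name, in units of 1000, for unigenes outside clusters. The line is the median and the band the 10th to 90th percentile of all unigenes with at least 20 fragments in each run of 1000 numbers, and points are members. The 25 members numbered 40000 to 65999 lie above 0 and the 39 numbered 66000 and above lie below it.

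The non-LTR elements made up 125 of the 186 members. Beside 33.9% higher and 60.1% lower of described called unigenes, 39 (31.2%) of them were higher, 78 (62.4%) lower and 8 not past the rule. Their fragments summed to 31912 in control and 18929 in exposed clams, 1.72-fold lower (1.69 to 1.75), and without CL6927.Contig5 the sum was 1.38-fold lower (1.36 to 1.41). The largest group was matched to jockey, BS or X-element, related elements first described in Drosophila, with 27 higher and 53 lower of 85.

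CL6927.Contig5, the most abundant of all members, is 3648 bases long and matched the RNA-directed DNA polymerase of jockey. It had 7344 fragments (128.9 FPKM) in the control and 781 (13.4 FPKM) in BDE-47, 9.60-fold lower (8.92 to 10.4). All 6 contigs of its cluster summed gave a log2 ratio of -3.16, so its loss was not made up by the other contigs. CL11428.Contig1, matched to jockey in both databases, had 11.2 and 0.492 FPKM in control and BDE-47, 22.8-fold lower (13.8 to 40.3).

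Other jockey-type unigenes went the opposite way. CL2145.Contig2 had 11.1 FPKM in control and 46.0 in exposed clams, 4.16-fold higher (3.71 to 4.68), and its cluster had a log2 ratio of 1.96. CL4164.Contig1 had 6.004 and 27.9 FPKM, 4.65-fold higher (4.03 to 5.38). Both were matched to the same Swiss-Prot entry name as CL6927.Contig5, though from another Drosophila species, so one description covered abundant unigenes in both directions. Unigene40904, matched to X-element, was absent from the control counts (0) and had 273 fragments (12.29 FPKM) in BDE-47, at least 89.1-fold higher, and it lies among the numbers 40000 to 65999. Unigene4988, matched to BS, had 1.70 and 8.56 FPKM, 5.04-fold higher (4.01 to 6.40). CL11448.Contig2, also matched to BS, had 0.663 and 4.13 FPKM, 6.24-fold higher (4.14 to 9.74), but the 6 contigs of its cluster summed gave a log2 ratio of 0.63, short of the rule.

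LINE-1 and TX1, non-LTR elements best known from mammals and the frog Xenopus, were the match of 33 members. Of these, 11 (33.3%) were higher, 19 (57.6%) lower and 3 not past the rule, beside 33.9% and 60.1% of described called unigenes. Their sum hardly differed, with 5190 control fragments and 5410 in BDE-47. CL8724.Contig2, 6154 bases long, had 5.33 FPKM in the control library and 22.3 in the BDE-47 library, 4.19-fold higher (3.804 to 4.62). CL20487.Contig1 had 12.03 and 3.71 FPKM, 3.24-fold lower (2.84 to 3.70), and CL8735.Contig1 had 11.3 and 4.27 FPKM, 2.64-fold lower (2.34 to 2.99). The near-level sum was therefore the balance of abundant unigenes with opposite ratios. Unigene30885, matched to LINE-1, had 0.781 and 4.57 FPKM, 5.85-fold higher (4.03 to 8.73).

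All 5 members matched to R1 or R2, elements that in insects insert into ribosomal RNA genes, were lower, beside 60.1% of described called unigenes. Of the 5, 1 (Unigene72318) is numbered above 66000. Summed, the 5 went from 989 control fragments to 92 in BDE-47, 10.98-fold lower (8.86 to 13.7). CL5786.Contig1 was matched to R2 in Swiss-Prot but to a jockey-like polymerase in Nr, so its family is uncertain, and it held 482 of the 989 control fragments. It had 20.7 FPKM in control and 1.01 in exposed clams, 20.5-fold lower (13.6 to 32.3). CL10647.Contig2, matched to R1, had 11.1 and 0.523 FPKM, 21.1-fold lower (12.2 to 40.2). Both clusters were also low when their contigs were summed, with log2 ratios of -3.96 and -4.32. CL5733.Contig1, also matched to R1, had 4.28 and 0.745 FPKM, but its cluster summed gave a log2 ratio of only -0.44. The RTE-type pair was split, with Unigene24751 2.70-fold higher (1.89 to 3.95) and CL1679.Contig3 2.34-fold lower (1.58 to 3.52), and the cluster of CL1679.Contig3 summed went up, with a log2 ratio of 0.91. These families were set out by words chosen after the values had been seen.

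A further 22 retrotransposon-type members carried no family in their descriptions, with 8 higher, 13 lower and 1 not past the rule. Among described called unigenes 33.9% were higher and 60.1% lower. CL313.Contig3, matched to a pol-like protein of the sea squirt Ciona, had 598 fragments (15.0 FPKM) in the control against 0 in BDE-47, at least 204-fold lower. With the other contigs of its cluster the log2 ratio was -3.20, so fragments of the same cluster remained in BDE-47.

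Of the LTR elements, 13 (33.3%) were higher and 26 (66.7%) lower, beside 33.9% and 60.1% of described called unigenes. Yet the LTR fragments summed to more in BDE-47, at 6869 control and 10995 BDE-47 fragments. Count and sum differ because Unigene15209 alone held 55.4% of the BDE-47 sum. It had 25.3 FPKM in control clams and 96.4 in exposed clams, 3.81-fold higher (3.61 to 4.03), the highest level of any member in BDE-47. Without it the LTR sum was 5304 and 4901 fragments, 1.11-fold lower (1.06 to 1.15).

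Ty3/gypsy-type matches made up 36 of the 39, with 13 (36.1%) higher and 23 (63.9%) lower, beside 33.9% and 60.1% of described called unigenes. CL4580.Contig4, also matched to the element 412 and 5680 bases long, had 0.643 and 12.4 FPKM, 19.2-fold higher (14.7 to 25.5), but the 4 contigs of its cluster summed gave a log2 ratio of 0.34. CL18947.Contig1 had 2.32 and 9.81 FPKM, 4.23-fold higher (3.69 to 4.86). Against these, Unigene16281, at 8163 bases the longest member, had 15.8 and 5.81 FPKM, 2.72-fold lower (2.498 to 2.97). The 19 members matched to the element 412 thus held 5 higher and 14 lower. Among those with at least 100 fragments the largest falls were Unigene73310, with 7.69 and 0.269 FPKM and 28.6-fold lower (14.3 to 67.0), and Unigene74470, with 4.004 and 0.154 FPKM and 26.0-fold lower (9.87 to 97.4). Both are numbered above 66000. The 3 BEL/Pao-type members were all lower and went from 146 control fragments to 9 in BDE-47, and 2 of them (Unigene71303 and Unigene74478) are numbered above 66000, where 85.8% of described called unigenes were lower.

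**Figure D3:**
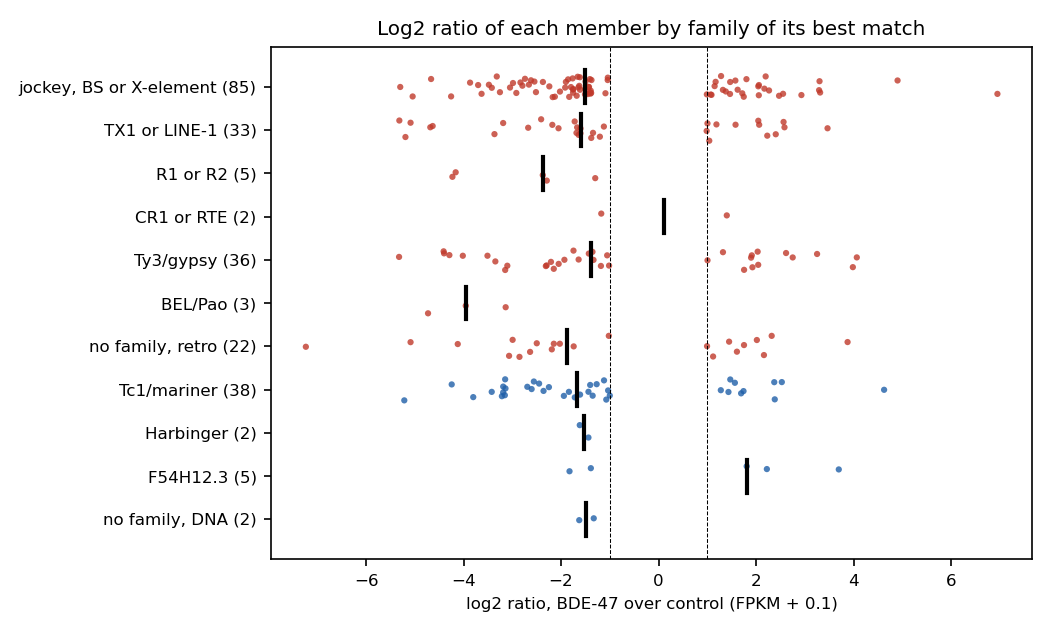
Log2 ratio of BDE-47 over control FPKM plus 0.1 for each of 233 members, in rows by family with the number of members. Family is that of the Swiss-Prot match, or of the first Nr match where Swiss-Prot named none. Each point is a unigene, the short black bar is the row's median, and the dashed lines mark log2 ratios of 1 and -1. Rows with many members have points on both sides, whereas the 5 R1 or R2 members and the 3 BEL/Pao members lie below -1. Of these, 1 and 2 are numbered above 66000, where 85.8% of described called unigenes were lower, beside 60.1% at all numbers and in clusters.

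DNA-transposon-type unigenes were also more often lower than higher. Of the 47, 12 (25.5%) were higher, 33 (70.2%) lower and 2 not past the rule, beside 33.9% and 60.1% of the described called unigenes. Their median log2 ratio was -1.44. Their sum was 8333 control fragments and 4596 in BDE-47, 1.85-fold lower (1.79 to 1.92), and 2.06-fold lower (1.98 to 2.14) without the unigenes numbered 40000 and above. None of the 7 longest, at 2000 bases or more, was higher, and all 7 were lower, beside 32.4% higher and 63.6% lower of described called unigenes of that length. They come from 6 clusters or single unigenes, of which CL1600 and CL1327 did not pass the rule with contigs summed, at log2 ratios of -0.25 and -0.98.

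Tc1/mariner-type transposases, named for elements of the worm Caenorhabditis elegans and of Drosophila, were the match of 38 of the 47. Of these, 9 (23.7%) were higher and 27 (71.1%) lower, beside 33.9% and 60.1% of described called unigenes. Unigene20549, matched to the minos transposase, was the most abundant in the control, with 75.2 FPKM and 12.7 in BDE-47, 5.93-fold lower (5.06 to 6.97). CL6863.Contig3 had 25.6 and 2.80 FPKM, 9.14-fold lower (7.22 to 11.7), and CL5724.Contig3 had 9.69 and 1.42 FPKM, 6.85-fold lower (5.49 to 8.62). Their clusters summed were lower too, at log2 ratios of -2.37 and -1.94. Unigene18058, matched to SETMAR, a fusion of a histone methyltransferase and a mariner transposase known from primates, had 8.004 and 0.790 FPKM, 10.1-fold lower (5.72 to 19.5). Unigene73303 had 4.77 and 0.924 FPKM, 5.16-fold lower (3.13 to 8.94). CL8093.Contig2, a short contig of 340 bases, had 28.4 and 13.8 FPKM, 2.06-fold lower (1.55 to 2.75).

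On the higher side, Unigene43930, a 457-base unigene matched to the Tc1 transposase, had 21.2 FPKM in control and 71.1 in exposed clams, 3.36-fold higher (2.80 to 4.05). Unigene16955, matched to the Tcb2 transposase of the oyster Crassostrea gigas, had 2.37 and 12.8 FPKM, 5.40-fold higher (3.71 to 8.08), and Unigene3989 had 2.24 and 6.38 FPKM, 2.85-fold higher (2.11 to 3.91). CL2321.Contig4, matched to SETMAR, had 3.00 and 17.8 FPKM, 5.93-fold higher (4.59 to 7.77), and CL355.Contig9 had 3.04 and 10.1 FPKM, 3.31-fold higher (2.57 to 4.31). For these last members the direction did not extend to the cluster: with all contigs summed the log2 ratios were 0.04 and 0.12.

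Outside Tc1/mariner, both members matched to HARBI1, a nuclease derived from Harbinger transposons, were lower, with 287 and 94 fragments on Unigene457. Among described called unigenes 60.1% were lower. The 5 members matched to F54H12.3, a transposon-derived worm protein of no stated element family, held 3 higher and 2 lower. Of the 3 higher, Unigene53046 and Unigene53047 are numbered 40000 to 65999. The other, Unigene20868, had 1.05 and 3.92 FPKM, 3.74-fold higher (2.45 to 5.89). No member was matched to piggyBac (0 unigenes).

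**Figure D4:**
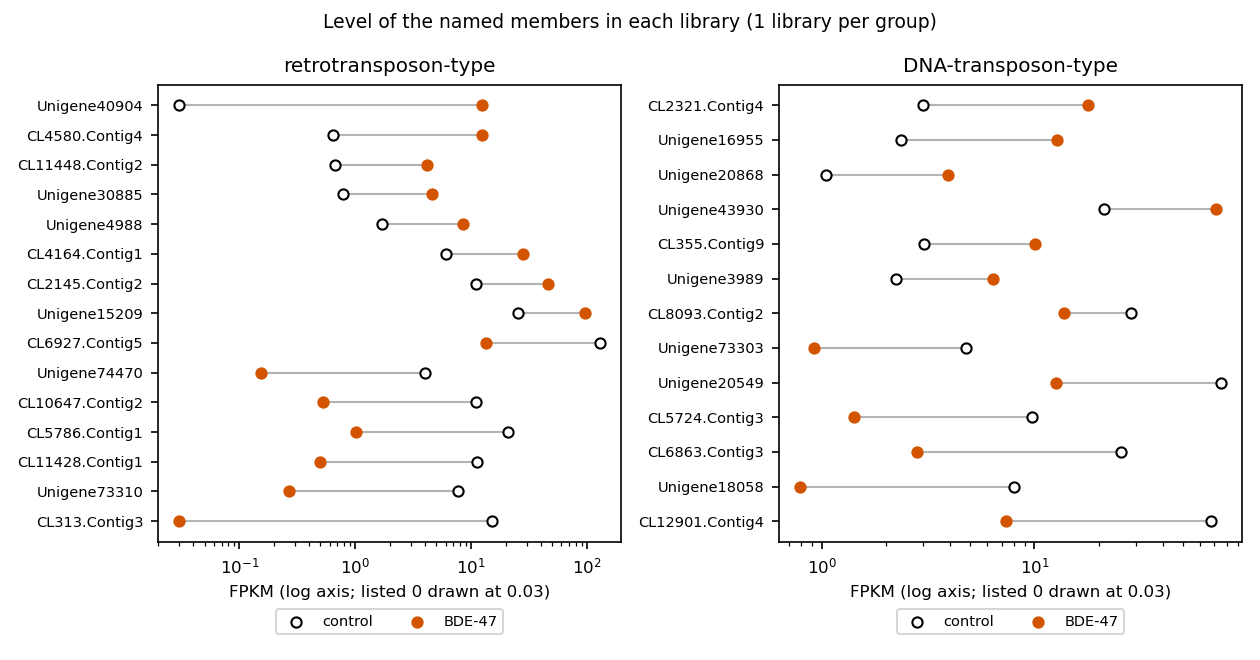
FPKM in the control (open) and BDE-47 (filled) library, on a log axis, of the 15 retrotransposon-type and 13 DNA-transposon-type unigenes named by rule, 1 library per group, with a listed 0 drawn at 0.03. CL6927.Contig5 has the highest control level, 128.9 FPKM, and Unigene15209 the highest BDE-47 level, 96.4 FPKM.

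Contigs of one cluster often carried different ratios. The members fell into 216 clusters or single unigenes, of which 80 had several contigs, 281 contigs in all. Of the 184 contigs in them that were not members, 16 were higher, 24 lower and 144 not past the rule. Among all 47257 contigs of clusters, 11.6% were higher and 14.8% lower. The authors had not called 152 of the 184. Uncalled contigs carry no description and could not be members, so the contrast of members with these contigs was partly set by selection. Summed over all contigs, 43 (24.3%) of 177 retrotransposon-type clusters or single unigenes were higher and 103 (58.2%) lower, and of 39 of the DNA type 8 (20.5%) were higher and 24 (61.5%) lower. The same sums for all 3879 clusters or single unigenes with a described called unigene gave 24.2% higher and 40.4% lower. In clusters of several contigs, 31 of 63 (49.2%) of the retrotransposon type and 10 of 17 (58.8%) of the DNA type were lower, beside 345 of 1728 (19.97%) with a described called unigene. Higher were 7, 0 and 187 of them.

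Of the 16 clusters with several members, 8 held members in both directions, 5 held only lower and 0 only higher members, and the rest had a member not past the rule. In CL8724, of the LINE-1 type, CL8724.Contig2 was 4.19-fold higher as given above, whereas CL8724.Contig1 went from 6.68 to 2.01 FPKM, 3.32-fold lower (2.57 to 4.33). In CL7621, CL7621.Contig1 was 2.496-fold higher (1.92 to 3.26) and CL7621.Contig3 14.04-fold lower (6.88 to 33.3). In CL12901, of the DNA type, CL12901.Contig4 fell from 67.4 to 7.31 FPKM, 9.22-fold lower (6.42 to 13.6), whereas CL12901.Contig5 was 2.75-fold higher (2.20 to 3.45), and all 5 contigs summed gave a log2 ratio of -0.67. How fragments that matched several contigs were counted is not stated in the sources used, so the value of a single contig, or of a copy of an element elsewhere, is uncertain.

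**Figure D5:**
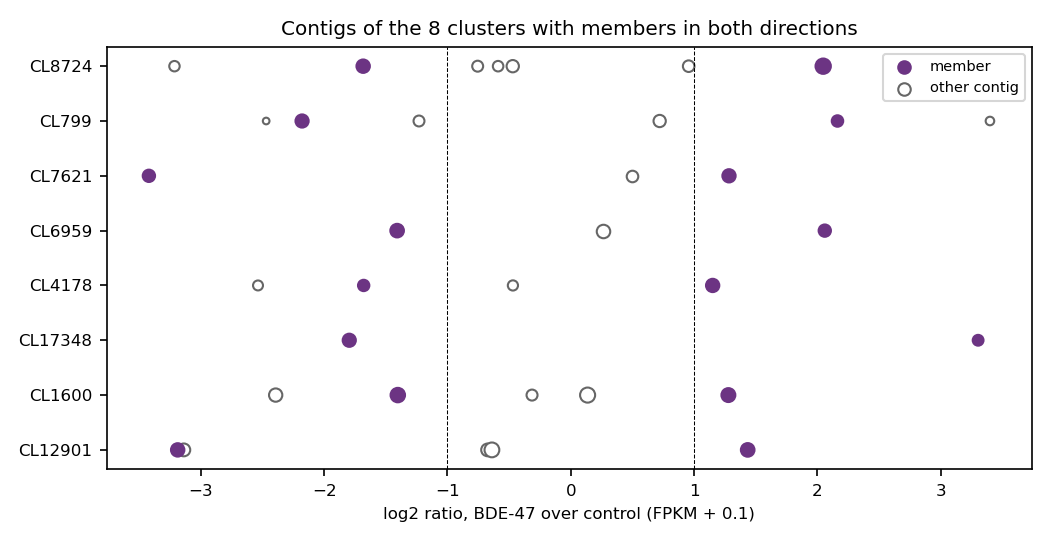
Log2 ratio of BDE-47 over control FPKM plus 0.1 for every contig of the 8 clusters that held members in both directions. Filled circles are members, open circles other contigs, larger circles have more fragments, and the dashed lines mark log2 ratios of 1 and -1. Each cluster has a member above 1 and a member below -1, and most other contigs lie between them.

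The descriptions of the members came from far away. A mollusc was the source of the first Nr match in 15 of 186 retrotransposon-type members (8.06%) and in 5 of 47 of the DNA type (10.6%), against 2296 of the 4291 described called unigenes with a species (53.5%). Sea urchin (39 members), the lizard Anolis (27) and Ciona (21) were the commonest retrotransposon-type sources, and salmon (14) that of the DNA type. The Swiss-Prot match alone brought in 86 of the 186 retrotransposon-type members. Where both descriptions named an element they gave the same type (58 and 20 members), with 0 disagreements.

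Genes that hold transposons down were sought among the authors' calls. A list of Piwi, tudor-domain, SAMHD1, TRIM28 and MORC descriptions and others of that role, chosen with earlier results of these data known, found 23 called unigenes, with 3 higher, 19 lower and 1 not past the rule, beside 33.9% higher and 60.1% lower of all described called unigenes. Their fragments summed to 10791 in control and 7898 in exposed clams, 1.40-fold lower (1.36 to 1.44). The authors' uncalled unigenes carry no description, so genes of this role that did not differ are not seen.

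All 4 Piwi-type unigenes, whose proteins carry the small RNAs that recognise transposons, were lower, beside 33.9% higher and 60.1% lower of described called unigenes. CL3498.Contig2 had 1284 control fragments (47.2 FPKM) and 556 in BDE-47, 2.36-fold lower (2.13 to 2.61), and CL15314.Contig1 had 14.2 and 5.94 FPKM, 2.39-fold lower (2.03 to 2.83). CL7665.Contig1 had 7.15 and 2.15 FPKM, 3.32-fold lower (2.78 to 3.99), though its cluster summed gave only -0.51 in log2, and Unigene31425 had 5.85 and 2.22 FPKM, 2.64-fold lower (1.62 to 4.42). Tudor-domain proteins, partners of Piwi in animals, had 1 higher and 2 lower unigenes. Unigene74125, numbered above 66000, had 23 and 3 fragments, 7.83-fold lower (2.37 to 40.7). Unigene16221 had 25.1 and 9.15 FPKM, 2.75-fold lower (2.46 to 3.08), and CL594.Contig2, matched to tudor domain-containing protein 7, had 11.3 and 42.4 FPKM, 3.76-fold higher (3.42 to 4.14).

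SAMHD1, a nucleotide hydrolase that in mammals limits reverse transcription, was the match of 9 unigenes, with 7 lower and 1 higher. The exception was the most abundant, Unigene32296, with 6.63 FPKM in control and 69.2 in exposed clams, 10.4-fold higher (8.99 to 12.2), and Unigene38587 had 9.28 and 1.42 FPKM, 6.55-fold lower (3.91 to 11.7). Of the 9, 6 are numbered 66000 and above, 5 of them called lower. Among all described called unigenes, 60.1% were lower and 33.9% higher. The 6 unigenes matched to TRIM28, a corepressor of transposons in mammals, held 1 higher and 5 lower, but most first Nr matches were other tripartite motif proteins, such as TRIM56 and, for the higher CL15299.Contig2 (2.16 and 8.31 FPKM), TRIM45. Without them the list had 2 higher and 14 lower, but its fragments summed to more in BDE-47, from 4857 to 5627, 1.13-fold higher (1.09 to 1.18).

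Words taken for cell types were counted among the described called unigenes, which all differ by selection and of which 33.9% were higher and 60.1% lower. Gonad words were vitellogenin, vasa, nanos, boule, zona pellucida, sperm, protamine, tektin and testis. Those for cilia were dynein heavy chain, axonem, radial spoke and cilia- and flagella. For muscle they were myosin heavy chain, paramyosin, troponin, tropomyosin, twitchin and titin. Gonad words found 30 unigenes, 12 higher and 14 lower, summing to 7444 control fragments and 13891 in BDE-47, and 10 of them at 0 in the control. Cilia words found 10, with 0 higher and 9 lower (1818 and 647 fragments), and muscle words 18, with 5 higher and 12 lower (4537 and 2325). Blood cell words (C1q, lysozyme, big defensin, ficolin and lectin) found 52, with 28 higher and 20 lower (6140 and 11621). Digestive gland words found 37, with 21 higher and 11 lower (20588 and 13330). These were amylase, trypsin, chymotrypsin, cellulase, endoglucanase, carboxypeptidase, cathepsin L, lipase and ferritin. Of the 37 digestive gland unigenes, 8 were at 0 in the control and 1 at 0 in BDE-47. Whether these words mark only the digestive gland was not tested, nor was the part of other cells in the transposon results.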

How the data were processed

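Poly(A) RNA libraries were read on a HiSeq 2000, per the labels' protocols. The authors deposited raw fragment counts per unigene and FPKM values (scaled to the counted total and unigene length, per the file headers), which matched FPKM recomputed here. The authors' deposited log2 ratio, p-value and FDR come from a test that the sources used do not name. Only the authors' calls (17625 unigenes, FDR at most 0.001) carry Nr and Swiss-Prot names, each with the authors' deposited alignment score. CASAVA 1.5 is listed per the submitters' processing notes, with assembler and counter not given in the sources used here.

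Members and lists were chosen with earlier results of these data known. Type was read from the first Nr entry where it matched, otherwise from Swiss-Prot. Family was read from Swiss-Prot where it named one, otherwise from the first Nr entry, so the databases need not agree on family. The family words Tc3, Tcb, minos, SETMAR, R1, R2, Pao and F54H12.3 were added after the values were seen. A fold compares fragments per library total, with exact 95% conditional binomial (Clopper-Pearson) intervals, and sums have exact Poisson intervals. Cluster sums take every contig of the count table, with the length of the longest. For each type the 6 highest and 6 lowest log2 ratios among members past the rule with at least 100 fragments, 1 per cluster, and the 4 most abundant were named, and up to 3 higher and 3 lower of the control list. Any other unigene was picked for naming with its values known. The rule was tested on simulated counts. TMM factors are from edgeR 4.0.16 (R 4.3.3), and the rest was computed in Python 3.11.15 with pandas 2.3.3 and scipy 1.17.1. Alternatives were another normalization, pseudocount, floor, interval, length limit, source of names and summing of contigs.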

Additional observations from a re-analysis of the deposited data

How the results depend on the processing

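More members of each type were lower than higher under each alternative here, and neither type's sum changed direction. The LTR sum did, from a log2 ratio of 0.65 to -0.14 without Unigene15209. Several members also changed direction with their contigs summed. The member in CL5703 was called higher, but its cluster was past the rule as lower, with 643 control and 278 BDE-47 fragments. CL1679, CL6982, CL4240, CL432 and CL20274 changed sign without passing the rule. The retrotransposon-type counts of 60 higher and 117 lower became 36 and 69 with at least 100 fragments (34.2% and 62.2% of described called unigenes of that depth), 19 and 41 with 1 unigene per first Nr description, and 31 and 63 from the first Nr entry only. The DNA-type counts of 12 and 33 became 8 and 20 with at least 100 fragments, 6 and 20 with 1 unigene per description, and 7 and 20 from Swiss-Prot only. These settings keep fewer members. The log2 ratio of the retrotransposon-type sum, -0.40, was -0.34 with TMM factors (which differ by 0.06 in log2), -0.35 with all contigs of the clusters, -0.14 without the member with the most fragments, -0.52 from the first Nr entry only and -0.37 from Swiss-Prot only. Chosen after seeing the data, it was -0.65 without the most abundant higher member and -0.39 without both. For the DNA type, -0.89 became -0.83, -0.68 and -0.75 under the first 3 of these, -0.97 from Swiss-Prot only and, chosen after seeing the data, -1.04 without unigenes numbered 40000 and above. Of 34 named unigenes, 12 moved by more than their interval with contigs summed, 17 with a pseudocount of 1 FPKM and 1 with TMM. No paired analysis was possible because each group has 1 library, and for the same reason no replicate could be left out. A count of 0 at the median retrotransposon-type length allows at most 0.144 FPKM (control) or 0.141 FPKM (BDE-47).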

Other observations

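The KEGG names that the authors' table gives to many members belong to other proteins. All 49 called unigenes with the KEGG name ubiquitin carboxyl-terminal hydrolase 25/28 were members, as were 23 of 26 named arginine vasopressin receptor 2, 19 of 20 named advillin and 16 of 16 named RNA polymerase I subunit RPA2, these last of the DNA type. Of the 26 vasopressin receptor unigenes, members held 8 higher and 15 lower, and the others 1 and 1. Of 13 named as an ABC transporter of the MDR/TAP group, 9 were members. A count of called unigenes by these KEGG names is therefore mostly a count of transposon-type unigenes. In COG, 33 retrotransposon-type members carry the class of transposases and 10 that of Retron-type reverse transcriptases.

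The blocks of unigene numbers hold for all unigenes with at least 20 fragments. Of the 10322 numbered 40000 to 65999, 4144 were higher and 177 lower, and of the 5950 numbered 66000 and above, 53 were higher and 3705 lower. Below 40000 the counts were 1392 and 3531 of 36504, and among contigs of clusters 5503 and 7008 of 36388. Without the floor of 20 fragments, 3685 of 25968 unigenes in the middle block were at 0 in the control and 22 at 0 in BDE-47. In the last block, also without it, these were 127 and 1873 of 11532. The cause was not tested.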
